A study of Arabidopsis thaliana with 15 samples.

Results

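Roots of wild-type Columbia-0 Arabidopsis thaliana seedlings kept in 5 mM H2O2 for 3 h were compared with roots kept in water. The comparison takes 3 libraries of each group by their labels, 6 of the 15 libraries measured, and covers all genes: 9986 of the 14532 genes listed had enough counts to be tested. All seedlings were 7 days old and had grown on Murashige and Skoog agar with sucrose under 16 h of light and 8 h of dark at 21 °C. A biological replicate was the root tissue of 30 to 50 seedlings, and the replicates of a group carry the letters a, b and c. The other groups in the model were roots after 2 h and 1 h in 5 mM H2O2, and roots after 2 h in 5 mM H2O2 with 10 µM of a photosensitizer, labelled RB in the titles and MRB in the treatment field. The water roots have time 0 in their titles and 1 h of water in their treatment field, so H2O2 and time in solution cannot be told apart in this comparison. No group was transgenic, and each library mixes all cell types of the root.

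Hydrogen peroxide is a mild oxidant that crosses membranes, partly through aquaporins, and oxidizes cysteine thiols in proteins. Plant cells remove it with catalases, ascorbate peroxidases, peroxiredoxins and glutathione-linked enzymes. They answer high doses with chaperones that hold unfolding proteins, under heat shock transcription factors that bind heat shock elements in promoters, and with glutathione S-transferases (GSTs) that conjugate reactive compounds. In the root wall H2O2 is also a substrate: class III peroxidases use it to cross-link extensins, the hydroxyproline-rich glycoproteins of growing walls and root hairs.

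Expression was measured by MARS-seq, which reads tags from the 3′ end of transcripts, so levels in CPM (counts scaled to a fixed total per library) are not divided by gene length. The 3 h libraries held 4080521, 2793258 and 2580683 counts, and the water libraries held 2291529, 5073443 and 1219400. Profiles of 2 libraries of one group correlated at r = 0.954 to 0.969 at 3 h and 0.927 to 0.969 in water, across genes. Replicate c at 3 h stood furthest from water: it was the highest of the 3 in 68.9% of the genes that rose, against 38.8% of all genes tested. Summed markers of green shoot tissue were 119 to 137 CPM at 3 h and 122 to 139 CPM in water, low in both groups. Endodermis markers summed to 770 to 1259 CPM at 3 h and 882 to 1026 CPM in water, and xylem markers to 229 to 263 CPM at 3 h and 207 to 234 CPM in water.

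After 3 h of H2O2 the root transcriptome differed from water in 3048 of the 9986 genes tested, 30.5%. Of these, 1615 rose (16.2% of genes tested) and 1433 fell (14.4%), and 2326 differed by at least 1 on the log2 scale. Chaperones, GSTs, stress transcription factors and histones were among the genes that rose, and extensins, root hair genes, peroxidases and nutrient transporters among those that fell. A gene was called at an adjusted p under 0.05 from edgeR's quasi-likelihood test with Benjamini-Hochberg adjustment over all genes tested, and every adjusted p-value below comes from that test unless named otherwise. Each ± after a log2 fold change is its standard error, and values of 3 libraries are given in the order a, b, c. The 3 values at 3 h lay wholly above those in water in 1530 of the 1615 genes that rose, and wholly below in 1357 of the 1433 that fell. The median log2 fold change over all genes tested was -0.07. Under upper-quartile scaling that median was -0.24, and 1268 genes rose while 1826 fell.

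**Figure D1:**
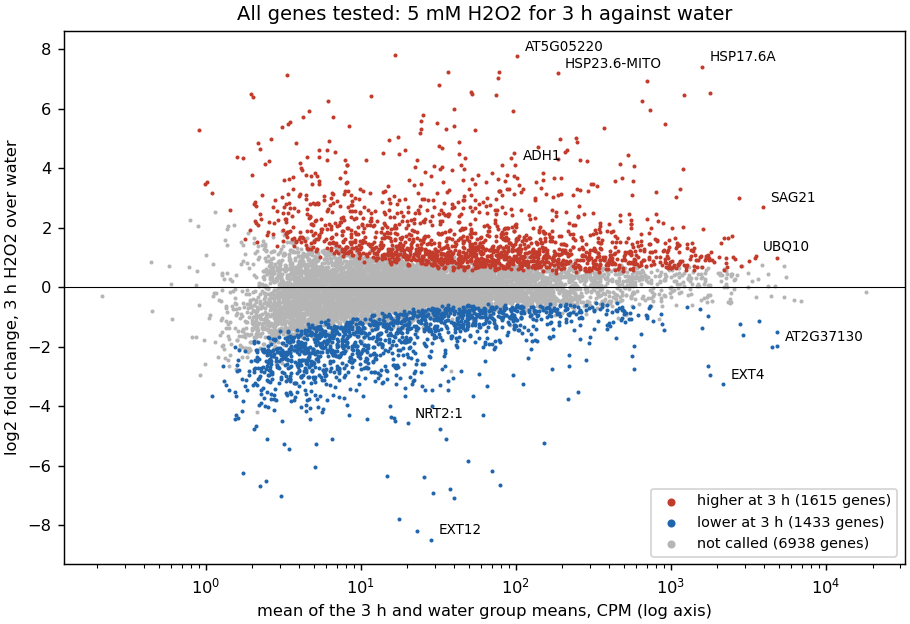
Each point is 1 of the 9986 genes tested, with the mean of the 2 group means in CPM on a log x axis and the log2 fold change of 3 h H2O2 over water on the y axis. The 1615 genes that rose are red, the 1433 that fell are blue and the 6938 not called are grey; HSP17.6A lies among the largest rises and EXT12 at the bottom.

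The direction of calls varied with the level of the gene. Among the 1730 genes that averaged at least 100 CPM over all 15 libraries, 33.8% rose and 10% fell, with a median log2 fold change of 0.33. Among the 3472 genes under 10 CPM, 6.97% rose and 17.7% fell, with a median of -0.44. In between, at 10 to 100 CPM, 16.5% of 4784 genes rose and 13.5% fell. This average includes the H2O2 libraries, so a rise lifts a gene's own average and a fall lowers it. Shares by level in water alone were not computed. Some of these shares are given again beside the histones and ribosomal proteins.

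Small heat shock proteins, which bind unfolding proteins without ATP, made up 6 of the 12 largest rises among the called genes whose groups did not overlap and which averaged at least 20 CPM in the higher group. All 8 cytosolic members tested, of 9 listed, rose, with a median log2 fold change of 6.36, and so did all 4 organellar members tested, of 6 listed, with a median of 7.21. HSP17.6A (AT5G12030), a cytosolic class II protein, had 1720, 2312 and 5511 CPM at 3 h, against 18.7, 14.1 and 25.4 CPM in water (log2 fold change 7.41 ± 0.47, adjusted p = 3.27e-09). The mitochondrial protein HSP23.6-MITO (AT4G25200) had 257, 258 and 598 CPM at 3 h, against 3.98, 1.65 and 2.46 CPM in water (log2 fold change 7.19 ± 0.45, adjusted p = 3.27e-09). HSP21 (AT4G27670), of the plastid, had 64.1, 58.7 and 94.8 CPM at 3 h, against 0.4, 0.17 and 1.64 CPM in water (log2 fold change 7.24 ± 0.61, adjusted p = 6.82e-08). In all 3 genes the groups were far apart, and replicate c was the highest library at 3 h. ATHSP22.0 (AT4G10250), of the endoplasmic reticulum, had 114, 104 and 246 CPM at 3 h, against 1.59, 0.5 and 1.64 CPM in water (log2 fold change 7.24 ± 0.47, adjusted p = 4.67e-09). The 9 cytosolic members listed summed to 9942, 11793 and 24638 CPM at 3 h, against 199, 115 and 279 CPM in water. The 6 organellar members listed summed to 693, 650 and 1520 CPM at 3 h, against 32.0, 15.6 and 22 CPM in water. Cytosolic small heat shock proteins are close relatives, and the sources used here do not give how reads that match several genes were counted.

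The largest rise under those naming conditions was in a gene of another kind. AT2G23110, annotated as a late embryogenesis abundant (LEA) protein of group 6, had 11.2, 22.4 and 66 CPM at 3 h, against 0, 0.17 and 0 CPM in water (log2 fold change 7.79 ± 0.84, adjusted p = 1.51e-06). Its raw counts were 238 over the 3 h libraries and 1 over the water libraries, a ratio of 263 after scaling for depth, with a 95% counting interval of 46.8 to 1.044e+04. LEA proteins accumulate in drying seeds and tissues. AT5G05220, annotated as an uncharacterized protein, had 139, 127 and 343 CPM at 3 h, against 1.2, 0.33 and 2.46 CPM in water (log2 fold change 7.77 ± 0.61, adjusted p = 3.19e-08). Both genes were near 0 in every water library, and their lowest library at 3 h lay far above the highest in water. AT3G60415, a phosphoglycerate mutase family gene, had 96.2, 98.2 and 110.1 CPM at 3 h, against 1.59, 0.17 and 3.28 CPM in water (log2 fold change 6.55 ± 0.49, adjusted p = 1.79e-08), with little spread at 3 h. AT1G22810, a factor of the AP2/ERF family, had 73.5, 87 and 148 CPM at 3 h, against 2.39, 0.5 and 0.82 CPM in water (log2 fold change 6.50 ± 0.45, adjusted p = 9.6e-09). AT3G06325 (annotated as other RNA) had 73.2, 137 and 251 CPM at 3 h, against 1.2, 1.16 and 0.82 CPM in water, and AT2G01008 had 32.1, 52.7 and 106 CPM at 3 h, against 0, 0.5 and 1.64 CPM in water. In the RefSeq annotation both lie beside ribosomal RNA genes, so their counts are uncertain.

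Promoters of 3 genes with large rises are shown because they differ in which known elements they hold. Each is the 250 bases before the annotated gene start, read 5′ to 3′ on the gene's strand from the RefSeq genome TAIR10.1. Capitals mark every match, on either strand, to a heat shock element core (GAANNTTC or TTCNNGAA), a W-box (TTGACC or TTGACT), the TGA factor element TGACG, the evening element AAATATCT or the G-box CACGTG. AT5G05220 is at chr5:1550001-1550250 (plus strand) and HSP17.6A at chr5:3884839-3885088 (minus strand). HSP17.4 (AT3G46230), a cytosolic class I protein at chr3:16984868-16985117 (minus strand), was added after the matches were seen. The promoter of AT2G23110, the gene with the largest rise, was read too and is left out of the display. It held a TGACG match at 154 to 150 bases before the gene start and no other of these elements.
AT5G05220: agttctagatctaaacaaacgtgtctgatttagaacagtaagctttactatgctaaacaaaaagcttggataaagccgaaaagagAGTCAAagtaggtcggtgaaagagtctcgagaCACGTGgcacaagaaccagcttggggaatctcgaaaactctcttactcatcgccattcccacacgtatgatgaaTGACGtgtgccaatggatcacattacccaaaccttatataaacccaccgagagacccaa
HSP17.6A: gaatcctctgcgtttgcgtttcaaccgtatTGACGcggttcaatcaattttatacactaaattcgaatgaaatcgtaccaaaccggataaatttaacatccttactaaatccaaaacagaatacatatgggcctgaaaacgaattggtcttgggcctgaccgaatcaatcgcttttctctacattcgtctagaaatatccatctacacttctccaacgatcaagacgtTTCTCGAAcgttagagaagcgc
HSP17.4: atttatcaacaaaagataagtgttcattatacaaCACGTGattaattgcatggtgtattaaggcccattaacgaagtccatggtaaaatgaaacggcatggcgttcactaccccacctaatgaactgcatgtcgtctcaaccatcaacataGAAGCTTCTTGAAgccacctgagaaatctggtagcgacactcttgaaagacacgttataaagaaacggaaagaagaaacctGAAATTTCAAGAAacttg

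The HSP17.4 window holds 2 heat shock elements of 3 alternating units, in which a core that starts with GAA overlaps a core that starts with TTC. The nearer one spans 18 to 6 bases before the gene start and the other 99 to 87 bases before it. HSP17.6A holds 1 core at 22 to 15 bases and a TGACG match further out. AT5G05220 holds a G-box at 133 to 128 bases, a W-box match and a TGACG match. HSP17.4 itself had 2240, 2829 and 5527 CPM at 3 h, against 41, 20.7 and 57.5 CPM in water (log2 fold change 6.53 ± 0.47, adjusted p = 1.24e-08), so the groups did not overlap. Of the 12 genes with the largest rise, HSP17.4 was the 1 whose window held the 3-unit element.

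Across the 9923 promoters read for tested genes, the 3-unit heat shock element was present in 0.474%, and in 0.994% of the 1610 promoters of genes that rose and 0.0705% of the 1419 of genes that fell. It was in 2 of the 8 cytosolic small heat shock protein promoters and in 3 of 12 promoters of heat shock factors and partners, but in 0 of the 4 organellar small heat shock protein promoters and 0 of 21 promoters of larger chaperones. The G-box was in 16.8% of the 196 promoters of genes that rose by at least 3 on the log2 scale, in 5.39% of the 167 that fell by at least 3, and in 7.75% of all. The W-box was in 39.3% of the promoters of those strong rises, in 28.7% of those strong falls and in 28.3% of all. TGACG was in 29.1% of the strong rises, 16.2% of the strong falls and 19.1% of all. The evening element was in 3.06% of the strong rises, 3.59% of the strong falls and 5.13% of all. These shares describe letters in a short window and were not tested.

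Among the larger chaperones the rises were smaller and less uniform. Of 21 tested (23 listed), 13 rose and 0 fell, against 16.2% and 14.4% of all genes tested, with a median of 1.3. Hsp70b (AT1G16030), a heat-inducible HSP70, had 572, 596 and 1003 CPM at 3 h, against 18.7, 12.1 and 24.6 CPM in water (log2 fold change 5.36 ± 0.34, adjusted p = 3.28e-09). HSP90.1 (AT5G52640), the inducible cytosolic HSP90, had 205, 135 and 201 CPM at 3 h, against 21.1, 9.92 and 9.03 CPM in water (log2 fold change 3.74 ± 0.37, adjusted p = 4.91e-07). In both genes the groups were apart. BAG6, a calmodulin-binding co-chaperone, rose by 4.05 ± 0.39, HSP70 (AT3G12580) by 2.24 ± 0.32 and the HSP70 exchange factor Fes1A by 2.14 ± 0.78. The abundant HSP90 genes HSP81-2 and HSP81-3 rose by 0.88 ± 0.19 and 0.87 ± 0.25. The list as a whole summed to 11053, 13696 and 12749 CPM at 3 h, against 10912, 8848 and 13040 CPM in water, so its total overlapped between the groups. Under upper-quartile scaling 11 rose and 1 fell, and without replicate a in water 8 rose.

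Of 12 heat shock factors and partners tested (19 listed), 8 rose and 1 fell, against 16.2% and 14.4% of all genes tested. Their median was 1.70. HSFA2, the factor that amplifies the heat shock response, had 54, 38.3 and 52.1 CPM at 3 h, against 1.59, 0.66 and 0.82 CPM in water (log2 fold change 5.59 ± 0.40, adjusted p = 1.24e-08). MBF1C, a coactivator needed for thermotolerance, had 557, 724 and 1740 CPM at 3 h, against 72.9, 26.4 and 40.2 CPM in water (log2 fold change 4.44 ± 0.45, adjusted p = 5.71e-07). DREB2A, an AP2/ERF factor upstream of a heat shock factor, had 48.2, 30.4 and 52.6 CPM at 3 h, against 5.98, 4.3 and 7.39 CPM in water (log2 fold change 2.98 ± 0.35, adjusted p = 3.83e-06). All 3 were higher in every 3 h library than in any water library. The class B factors HSF4 (annotated as heat shock factor 4, AT4G36990), HSFB2A and HSFB3 rose by 1.76 ± 0.19, 2.64 ± 0.30 and 2.59 ± 0.51. HSFB4, a class B factor of root ground tissue and stem cells, fell by 1.23 on the log2 scale.

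Besides heat shock factors, the AP2/ERF, NAC and WRKY families of transcription factors were counted. For comparison, 16.2% of all genes tested rose and 14.4% fell. Of 73 AP2/ERF factors tested (92 listed), 30 rose and 7 fell, with a median of 0.65. TDR1 (AT3G23230) had 74.9, 119.8 and 248 CPM at 3 h, against 1.99, 0.5 and 4.92 CPM in water (log2 fold change 6.45 ± 0.61, adjusted p = 3.03e-07). AT1G71520 had 58.1, 83 and 92.3 CPM at 3 h, against 0.4, 0.99 and 3.28 CPM in water (log2 fold change 6.0 ± 0.44, adjusted p = 1.32e-08). ERF6, a factor that responds to reactive oxygen, had 655, 1016 and 1067 CPM at 3 h, against 173, 188 and 207 CPM in water (log2 fold change 2.27 ± 0.25, adjusted p = 1.59e-06). In each the 3 h values lay above all water values. The 7 that fell included RAP2.11, a factor of the low-potassium response (-2.61), and LEP (-2.73). Of 22 NAC factors tested (39 listed), 5 rose and 3 fell, not far from the shares of all genes tested, with a median of 0.27. Without replicate c at 3 h 3 NAC genes rose and 1 fell, and 1 fell without replicate a or b in water. NAC032 had 217, 287 and 344 CPM at 3 h, against 44.2, 27.8 and 23.8 CPM in water (log2 fold change 3.13 ± 0.29, adjusted p = 2.01e-07) and NAC102 had 475, 391 and 722 CPM at 3 h, against 58.6, 63.3 and 43.5 CPM in water (log2 fold change 3.25 ± 0.37, adjusted p = 2.63e-06). WRKY factors were evenly divided, with 8 of 32 tested (40 listed) up, 8 down and a median of -0.24. WRKY6 (1.83 ± 0.21), WRKY40 (1.65 ± 0.21) and WRKY33 (1.46 ± 0.20), which act in stress and defence, rose, whereas WRKY35 (-2.70 ± 0.43) and WRKY14 (-1.83 ± 0.31) fell. The 8 WRKY falls became 5 without replicate b in water, 4 without replicate a at 3 h and 3 without replicate b at 3 h.

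Of all genes tested 16.2% rose and 14.4% fell, 30.5% in all. Among 33 antioxidant enzymes tested (38 listed), 7 rose and 3 fell, so the list was called about as often as genes in general. Its median of 0.19 became -0.00 under upper-quartile scaling, where 6 rose and 5 fell. Without replicate b in water 1 fell. The largest rise was in APX2, an inducible cytosolic ascorbate peroxidase, with 47.8, 44.3 and 50.6 CPM at 3 h, against 0.4, 1.16 and 2.46 CPM in water (log2 fold change 5.32 ± 0.40, adjusted p = 1.6e-08). APX1, the main cytosolic form, had 1360, 1268 and 1874 CPM at 3 h, against 1104, 1429 and 819 CPM in water (log2 fold change 0.42 ± 0.25, adjusted p = 0.22), and its groups overlapped. GSH1, the first enzyme of glutathione synthesis, had 1116, 1284 and 1230 CPM at 3 h, against 435, 384 and 433 CPM in water (log2 fold change 1.54 ± 0.19, adjusted p = 6.71e-06). The copper/zinc superoxide dismutase CSD1 rose by 1.78 ± 0.33 and the mitochondrial manganese form MSD1 by 1.16 ± 0.25. The 3 catalases, which degrade H2O2 directly, differed in sign. CAT1 had 146, 133 and 126 CPM at 3 h, against 63.8, 58.5 and 43.5 CPM in water (log2 fold change 1.28 ± 0.22, adjusted p = 0.000208), CAT2 had 126, 78.7 and 76.9 CPM at 3 h, against 148, 148 and 136 CPM in water (log2 fold change -0.62 ± 0.25, adjusted p = 0.0649), and CAT3 had 1029, 1150 and 764 CPM at 3 h, against 1142, 1470 and 2081 CPM in water (log2 fold change -0.67 ± 0.24, adjusted p = 0.0397). The CAT3 groups overlapped, and the CAT3 call was lost under 13 of the 22 alternatives. TPX1, a cytosolic peroxiredoxin, had 5.51, 5.19 and 11.4 CPM at 3 h, against 55.8, 40.8 and 30.4 CPM in water (log2 fold change -2.58 ± 0.32, adjusted p = 9.37e-06), all below the water values.

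Of 24 GSTs tested (34 listed), 12 rose and 4 fell, against 16.2% and 14.4% of all genes tested, with a median of 1.09. GSTU19 had 1497, 1624 and 2640 CPM at 3 h, against 264, 239 and 198 CPM in water (log2 fold change 3.04 ± 0.26, adjusted p = 9e-08). GSTU12 had 259, 379.7 and 485 CPM at 3 h, against 10.8, 7.6 and 21.3 CPM in water (log2 fold change 4.97 ± 0.34, adjusted p = 7.91e-09), and GSTU24 had 191, 134 and 204 CPM at 3 h, against 13.6, 6.61 and 5.75 CPM in water (log2 fold change 4.33 ± 0.39, adjusted p = 1.59e-07). Each of these tau class genes was higher in all 3 h libraries than in any water library. Those that fell were GSTL3 (-4.16), GSTZ1 (-2.16), an enzyme of tyrosine breakdown, GSTF10 (-1.58) and GSTU14 (-0.87). The falls were 1 without replicate a at 3 h and 2 without replicate a in water or replicate b at 3 h.

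The lists of genes that report mitochondrial disturbance and low oxygen held more rises than falls. For all genes tested the shares were 16.2% higher and 14.4% lower. Of 7 mitochondrial retrograde genes tested (11 listed), 5 rose and 0 fell, with a median of 1.97, and under upper-quartile scaling 5 rose and 1 fell. AT5G51440 (4.32), 1 of those that rose, is also counted above among the organellar small heat shock proteins. AOX1A, the alternative oxidase that lets electrons bypass later respiratory complexes, had 88.6, 48.7 and 109 CPM at 3 h, against 20.7, 26.4 and 13.1 CPM in water (log2 fold change 1.97 ± 0.44, adjusted p = 0.00223). NDB2, an external NAD(P)H dehydrogenase of the same bypass, had 117, 143 and 174 CPM at 3 h, against 26.7, 23.5 and 27.9 CPM in water (log2 fold change 2.48 ± 0.22, adjusted p = 1.23e-07). Of 19 hypoxia genes tested (19 listed), 10 rose and 2 fell, with a median of 1.25. ADH1, the alcohol dehydrogenase of fermentation, had 172, 142 and 253 CPM at 3 h, against 9.16, 15.4 and 5.75 CPM in water (log2 fold change 4.09 ± 0.39, adjusted p = 3.1e-07). HB1, a haemoglobin that scavenges nitric oxide, had 306, 475 and 631 CPM at 3 h, against 34.7, 42 and 71.4 CPM in water (log2 fold change 3.28 ± 0.32, adjusted p = 4.64e-07). LBD41 had 231, 210.0 and 364 CPM at 3 h, against 90.0, 69.3 and 57.5 CPM in water (log2 fold change 1.88 ± 0.25, adjusted p = 1.5e-05), and RBOHD, an NADPH oxidase that makes superoxide, rose by 1.26 ± 0.31. In these named genes the 3 h and water values did not overlap. The 2 that fell were AT4G27450 (-2.10) and the ethylene receptor gene ETR2 (-0.91). Leaving out single libraries or changing the method gave 6 to 10 rises among the hypoxia genes.

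The abundant genes with the largest gain in CPM were SAG21 and TCH3. SAG21, a mitochondrial LEA protein linked to oxidative stress, had 3585, 6407 and 10482 CPM at 3 h, against 1010, 934 and 1245 CPM in water (log2 fold change 2.68 ± 0.32, adjusted p = 4.08e-06). TCH3, a calmodulin-like calcium sensor first found as a touch gene, had 3667, 5771 and 5261 CPM at 3 h, against 547, 574 and 738 CPM in water (log2 fold change 2.98 ± 0.24, adjusted p = 5.26e-08). TCH4, a wall enzyme also named for touch, had 5.74, 4.39 and 8.93 CPM at 3 h, against 11.6, 6.78 and 9.85 CPM in water (log2 fold change -0.55 ± 0.45, adjusted p = 0.375), and its groups overlapped. The polyubiquitin gene UBQ10, often used as a control gene, had 3823, 4933 and 5449 CPM at 3 h, against 2597, 1876 and 2464 CPM in water (log2 fold change 1.03 ± 0.25, adjusted p = 0.00388), with the groups apart. The thionin-like gene AT1G25275 rose by 1.73 ± 0.31 and MLP328 by 1.64 ± 0.37.

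**Figure D2:**
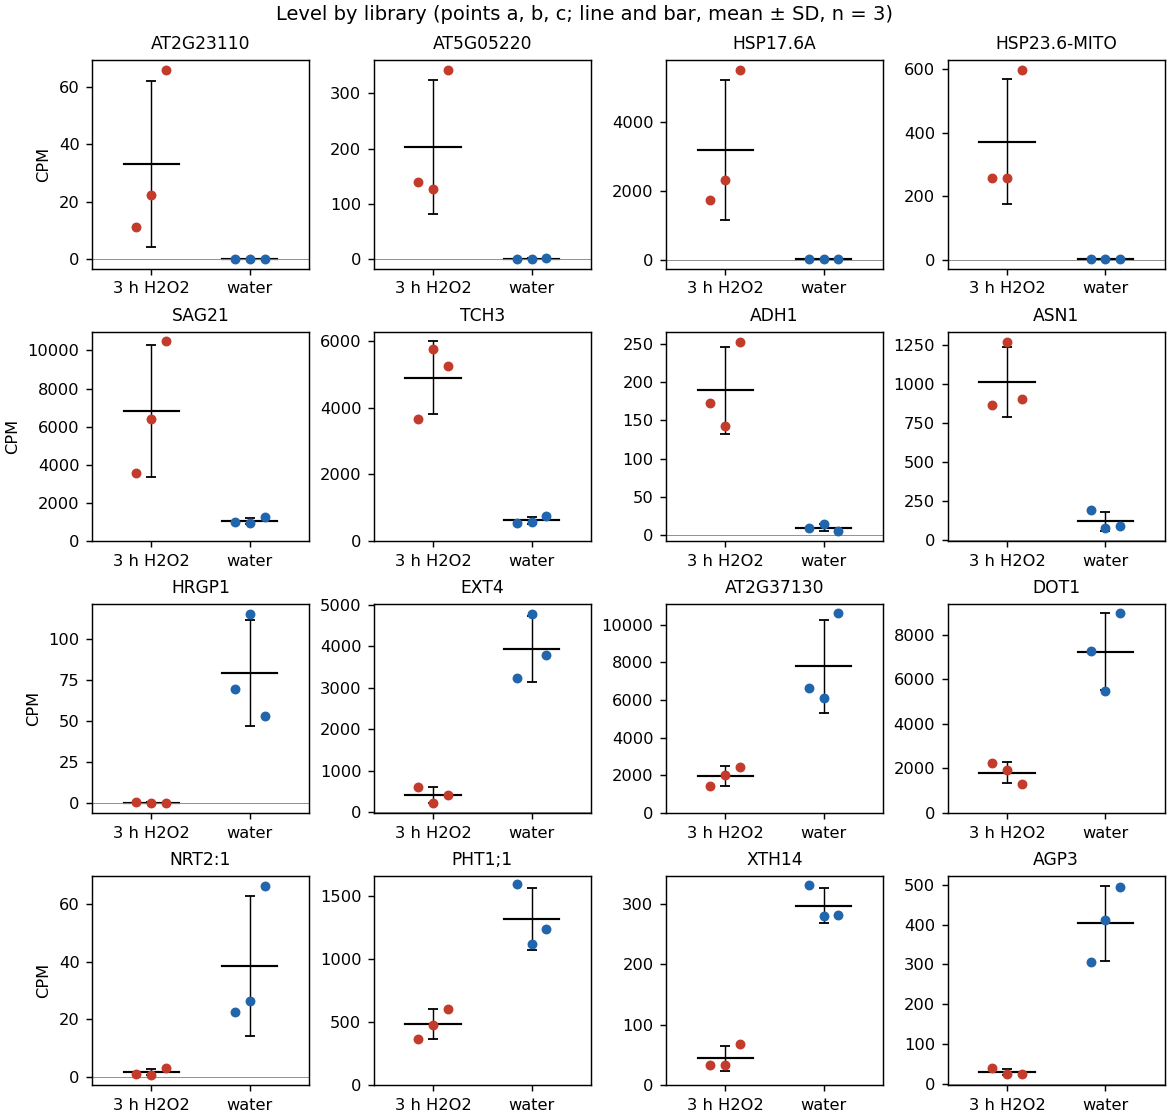
CPM of 16 named genes in the 3 libraries of 3 h H2O2 (red, left) and the 3 of water (blue, right), with the mean as a line and the SD as a bar (n = 3). Every panel shows non-overlapping groups, with 8 genes higher at 3 h and 8 lower, and replicate c (right point) of 3 h is the highest in HSP17.6A and SAG21.

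Most histone genes tested rose. Of 36 tested (42 listed), 29 rose and 0 fell, with a median of 1.01. Of all genes tested 16.2% rose, and 33.8% of those that averaged at least 100 CPM over all 15 libraries. Their summed level was 12986, 13921 and 19670 CPM at 3 h, against 7631, 7666 and 8233 CPM in water. AT1G75600, an H3-like member with the largest fold, had 35.6, 19.2 and 46.6 CPM at 3 h, against 1.59, 1.32 and 1.64 CPM in water (log2 fold change 4.49 ± 0.45, adjusted p = 5.45e-07). AT5G10980, a gene of the replacement variant H3.3, had 1642, 1171 and 1953 CPM at 3 h, against 598, 596 and 615 CPM in water (log2 fold change 1.40 ± 0.20, adjusted p = 4.86e-05), and the H2A gene HTA13 had 259.9, 254 and 392 CPM at 3 h, against 116, 72.7 and 84.5 CPM in water (log2 fold change 1.73 ± 0.22, adjusted p = 1.14e-05). All water values lay below all 3 h values in these 3. HTA9, a gene of the variant H2A.Z, had 504, 550.2 and 759 CPM at 3 h, against 653, 565 and 490.0 CPM in water (log2 fold change 0.08 ± 0.20, adjusted p = 0.785), and the H3.3 genes AT4G40030 and AT4G40040 were not called (0.55 and 0.26). Without replicate c at 3 h, 21 rose, and under upper-quartile scaling 24 rose, with 0 falls in both. TGACG was in 18 of the 36 histone promoters, 50%, against 19.1% of all, and many histone genes are near-identical copies in their coding part.

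Genes of DNA replication and mitosis, with which histone transcripts usually rise in the cell cycle, were not called. Of 7 tested (16 listed), 0 rose and 0 fell by edgeR or DESeq2, with a median of -0.02, and 1 had an unadjusted p under 0.05. PCNA1, the replication clamp, had 8.04, 5.59 and 1.98 CPM at 3 h, against 1.59, 2.81 and 0 CPM in water (log2 fold change 1.51 ± 0.63, adjusted p = 0.076), with overlapping groups. The SIAMESE-related genes, small inhibitors of cyclin-dependent kinases, included some that rose. AT1G07500 (SMR5) had 27.3, 52.7 and 103 CPM at 3 h, against 0.8, 1.65 and 0.82 CPM in water (log2 fold change 5.52 ± 0.51, adjusted p = 2.01e-07). AT5G02220 (SMR4) had 50.3, 57.5 and 116 CPM at 3 h, against 9.96, 8.76 and 13.1 CPM in water (log2 fold change 2.85 ± 0.34, adjusted p = 4.21e-06). SIM, an inhibitor that favours endoreduplication, fell by 1.21 on the log2 scale. Of the 6 genes tested in the list of DNA damage and cell cycle inhibitors (10 listed), 3 rose and 1 fell. Over all genes tested these shares were 16.2% and 14.4%. In that list 2 fell under upper-quartile scaling and without replicate c at 3 h.

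Ribosomal protein genes rose more often where their average over all 15 libraries was high, as genes in general did. Of 223 tested (253 listed, organellar ones included), 70 rose and 19 fell, with a median of 0.40. Of the 114 that averaged at least 100 CPM, 58 rose and 2 fell, 50.9% and 1.75%, with a median of 0.66, against 33.8% and 10% for all genes at that level. Of the 40 under 10 CPM, 3 rose and 7 fell, 7.5% and 17.5%, with a median of -0.85, against 6.97% and 17.7% for all genes at that level. The family summed to 116090, 158790 and 157170 CPM at 3 h, against 95401, 86379 and 109980 CPM in water. AT2G36170, which encodes ubiquitin fused to L40, had 342, 572 and 666 CPM at 3 h, against 197, 202 and 162 CPM in water (log2 fold change 1.49 ± 0.25, adjusted p = 0.000163). AT2G17360 (RPS4A) went the other way, with 7.81, 7.99 and 3.97 CPM at 3 h, against 31.5, 44.3 and 25.4 CPM in water (log2 fold change -2.34 ± 0.33, adjusted p = 3.2e-05). Neither gene had overlapping groups. Upper-quartile scaling gave 51 rises and 25 falls, and the fit without replicate c at 3 h gave 50 rises and 12 falls. Without replicate b at 3 h 46 rose and 11 fell. Of 32 proteasome subunits tested (36 listed), 1 rose and 1 fell, against 16.2% and 14.4% of all genes tested. Their median was -0.11, and over the alternatives 0 to 1 rose and 0 to 3 fell.

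**Figure D3:**
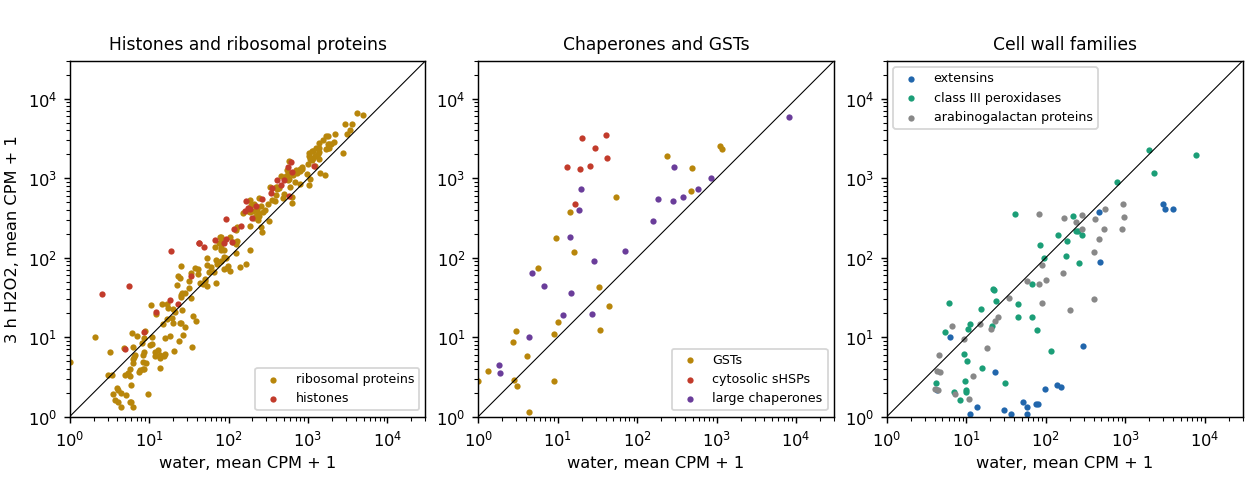
Mean CPM + 1 at 3 h (y axis) against mean CPM + 1 in water (x axis), both log axes, for members of 8 gene families, with the line of equality. The 29 histones and 70 ribosomal proteins that rose lie above the line, the 8 cytosolic small heat shock proteins (sHSPs) far above it, and the 18 extensins that fell below it.

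Nitrogen genes moved in both directions. ASN1, the asparagine synthetase that stores nitrogen when carbon is short, had 864, 1274 and 904 CPM at 3 h, against 191, 74.7 and 87 CPM in water (log2 fold change 3.11 ± 0.37, adjusted p = 4.76e-06). GDH1, a glutamate dehydrogenase, had 272, 231 and 264 CPM at 3 h, against 93.6, 107 and 35.3 CPM in water (log2 fold change 1.67 ± 0.36, adjusted p = 0.00184), and SEN1 (AT4G35770), a gene of dark and starved tissue, had 367, 500.3 and 533 CPM at 3 h, against 158, 59.2 and 35.3 CPM in water (log2 fold change 2.45 ± 0.39, adjusted p = 9.95e-05). All 3 had separate groups. Of 14 genes of amino acid breakdown and starvation tested (15 listed), 7 rose and 0 fell, against 16.2% and 14.4% of all genes tested. Their median was 0.80, and 4 to 7 rose over the alternatives. Both nitrate reductases rose. NIA2 had 549, 672 and 497 CPM at 3 h, against 105, 130.2 and 155 CPM in water (log2 fold change 2.14 ± 0.21, adjusted p = 4.92e-07), and NIA1 had 159, 127 and 139.9 CPM at 3 h, against 29.1, 46.3 and 28.7 CPM in water (log2 fold change 2.00 ± 0.32, adjusted p = 0.000132), again without overlap.

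Nitrate uptake genes fell over the same comparison. NRT2:1, the main high-affinity nitrate transporter of roots, had 1.15, 0.8 and 2.98 CPM at 3 h, against 22.7, 26.4 and 66.5 CPM in water (log2 fold change -4.58 ± 0.57, adjusted p = 8.68e-06). NRT1.1, the dual-affinity transporter and nitrate sensor, had 61.5, 46.3 and 76.9 CPM at 3 h, against 149, 341 and 146 CPM in water (log2 fold change -1.80 ± 0.40, adjusted p = 0.0022), and NRT1.5, which loads nitrate into the xylem, fell to 9.18, 4.39 and 3.47 CPM at 3 h, against 29.1, 29.9 and 27.9 CPM in water (log2 fold change -2.27 ± 0.54, adjusted p = 0.00357). Each had its 3 h values below its water values. Some transporters of other ions fell too. PHT1;1, a phosphate transporter, had 366, 478 and 604 CPM at 3 h, against 1596, 1119 and 1238 CPM in water (log2 fold change -1.45 ± 0.29, adjusted p = 0.00095), and SULTR1;2, the main sulfate uptake transporter, had 2.3, 3.59 and 2.48 CPM at 3 h, against 13.6, 15.4 and 17.2 CPM in water (log2 fold change -2.45 ± 0.50, adjusted p = 0.00105). HA2, the main proton pump of the root plasma membrane (-1.34), and the potassium transporter HAK5 (-1.66) fell as well. The ammonium transporters AMT2 (1.19) and AMT1;3 (0.94) and the potassium channel gene KT1 (0.68) rose. Of 17 genes of nutrient transport and assimilation tested (18 listed), 5 rose and 10 fell, against 16.2% and 14.4% of all genes tested. Their median was -1.04, and under upper-quartile scaling 3 rose and 11 fell. The rises were also 3 without replicate a in water or without replicate b or c at 3 h.

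Extensins held the largest falls under the same naming conditions. Of 21 tested (23 listed), 18 fell and 0 rose, against 14.4% and 16.2% of all genes tested. Their median was -5.86, and all 12 of the largest falls were genes of this kind. The family summed to 2675, 1044 and 1615 CPM at 3 h, against 10899, 15399 and 9985 CPM in water. EXT12 (AT4G13390) had 0.23, 0 and 0 CPM at 3 h, against 47, 68.8 and 54.2 CPM in water (log2 fold change -8.49 ± 0.99, adjusted p = 3.6e-06), which is 1 count in all at 3 h against 600 in water. That is a ratio of 542 in favour of water, with a 95% counting interval of 97.0 to 2.146e+04. The abundant EXT4 had 607, 210.4 and 411 CPM at 3 h, against 3234, 4790 and 3796 CPM in water (log2 fold change -3.26 ± 0.53, adjusted p = 0.000139), and EXT3, needed to assemble the wall of new cell plates, had 711, 174 and 341 CPM at 3 h, against 3199, 4081 and 2301 CPM in water (log2 fold change -2.96 ± 0.54, adjusted p = 0.000391). LRX1, an extensin with leucine-rich repeats that acts in root hairs, had 0.69, 0 and 0 CPM at 3 h, against 26.3, 47.1 and 13.9 CPM in water (log2 fold change -6.34 ± 0.86, adjusted p = 2.25e-05). In none of these 4 did the groups overlap. Extensin genes are repetitive and much alike, so reads could be split among them, and RefSeq annotates EXT11 as a pseudogene. Over the alternatives 16 to 18 fell.

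Most markers of root hair cells moved with the extensins. Of 7 tested (9 listed), 6 fell and 0 rose, against 14.4% and 16.2% of all genes tested. Their median was -4.0, and the list summed to 16.7 to 25.8 CPM at 3 h against 216 to 312 CPM in water. PRP3, a proline-rich protein of the root hair wall, had 3.44, 0.4 and 1.49 CPM at 3 h, against 59, 89.4 and 59.9 CPM in water (log2 fold change -5.09 ± 0.63, adjusted p = 7.33e-06), and the expansin EXPA7 had 3.9, 3.99 and 1.98 CPM at 3 h, against 59.8, 62 and 41.9 CPM in water (log2 fold change -4.0 ± 0.49, adjusted p = 6.71e-06). LRX1 stands in both lists. LRX1 was at 0 in 2 of the 3 libraries at 3 h and EXPA7 was at 0 in none. RHD6, the factor that starts root hair fate, was not called (log2 fold change -0.79). In bulk roots, fewer root hair cells and less RNA per root hair cell cannot be told apart, and the part of root hairs in the fall of extensins was not tested. The root cap markers SMB (-1.89) and CEL5 (-2.30) fell, and the list summed to 5.4 to 11 CPM at 3 h against 27.7 to 40.6 CPM in water. Of 5 shoot markers tested (8 listed), LHCB2.1 (4.60) and CAB1 (1.11) rose, and RCA (0.74), RBCS1A (-0.91) and RBCS3B (-0.13) were not called. The CAB1 call was lost under 6 of the 22 alternatives, among them upper-quartile scaling and the fit without replicate c at 3 h. In other marker lists, 0 of 3 xylem, 4 phloem, 2 stele and 1 stem cell niche markers were called by edgeR or DESeq2. An unadjusted p under 0.05 was reached by 1 phloem and 1 stele marker.

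In other wall families genes moved in both directions. Over all genes tested 16.2% rose and 14.4% fell. Of 40 class III peroxidases tested (53 listed), 4 rose and 15 fell, with a median of -0.63. AT2G37130, the gene with the largest loss in CPM, had 1404, 2026 and 2434 CPM at 3 h, against 6655, 6086 and 10639 CPM in water (log2 fold change -2.00 ± 0.34, adjusted p = 0.000194), and AT1G30870 had 6.66, 7.19 and 3.47 CPM at 3 h, against 119.9, 155 and 74.7 CPM in water (log2 fold change -4.30 ± 0.51, adjusted p = 4.57e-06). AT4G36430 was among the 4 that rose, with 246, 319.8 and 485 CPM at 3 h, against 40.6, 40.3 and 38.6 CPM in water (log2 fold change 3.13 ± 0.31, adjusted p = 5.13e-07). The groups were apart in all 3. The peroxidase rises were 2 without replicate a or c in water or replicate c at 3 h. Of 37 arabinogalactan proteins tested (41 listed), 1 rose and 15 fell, with a median of -0.63, and 10 fell without replicate c at 3 h. AGP3 had 38.6, 24.4 and 24.3 CPM at 3 h, against 305, 411 and 493 CPM in water (log2 fold change -3.77 ± 0.52, adjusted p = 2.69e-05), and AGP12, the 1 that rose, had 282, 358 and 432 CPM at 3 h, against 57.4, 68.1 and 118 CPM in water (log2 fold change 2.16 ± 0.39, adjusted p = 0.00039). Of 21 xyloglucan-modifying XTH enzymes tested (24 listed), 3 rose and 5 fell, with a median of 0.19, and without replicate c in water 5 rose, without replicate c at 3 h 1. XTH14, an enzyme of the elongation zone and root hairs, had 32.6, 32.3 and 68 CPM at 3 h, against 330.3, 280.0 and 281 CPM in water (log2 fold change -2.76 ± 0.40, adjusted p = 4.72e-05), and XTH31 rose (1.35). Of 18 expansins, which loosen walls, 4 rose and 5 fell (20 listed), EXLA2 (2.48) and EXPA15 (-2.20) among them, and 2 rose without any 1 of the water libraries or replicate c at 3 h. The expansin falls were 3 without replicate b in water or replicate b or c at 3 h, and neither the XTH nor the expansin list kept a steady balance of rises and falls. DOT1, a glycine-rich protein, had 2238, 1904 and 1289 CPM at 3 h, against 7269, 5486 and 8970 CPM in water (log2 fold change -2.00 ± 0.27, adjusted p = 1.77e-05). The root hair marker values above stand beside these falls as well, and their part in them was not tested.

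**Figure D4:**
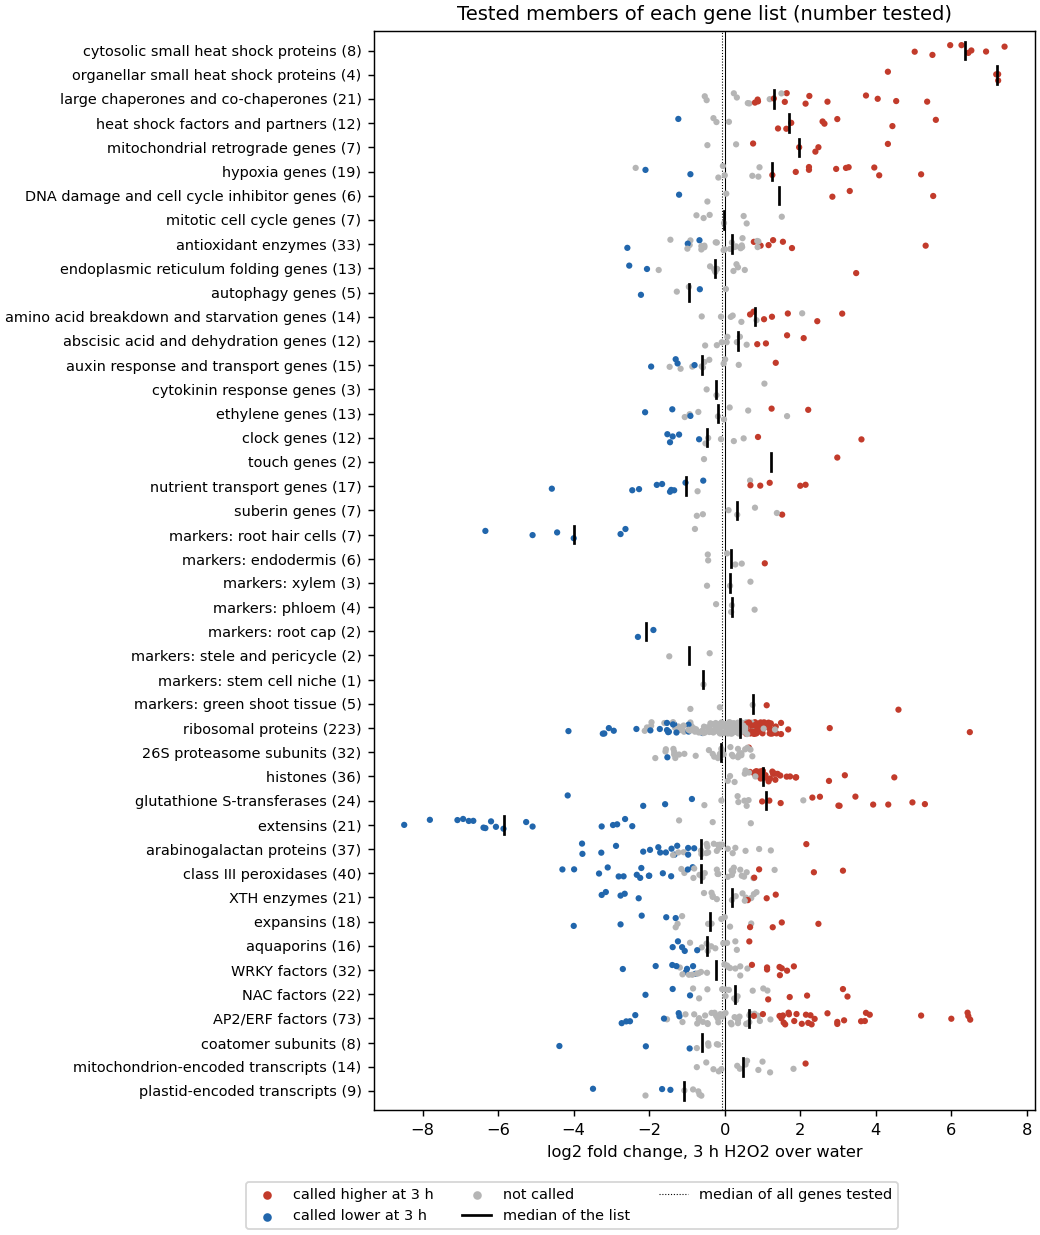
Each point is a tested member of a gene list, placed by its log2 fold change of 3 h H2O2 over water, red where it rose, blue where it fell and grey where it was not called. Black bars are list medians, which run from 7.21 for organellar small heat shock proteins to -5.86 for extensins, and the dotted line is the median of all genes tested, -0.07.

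Of 16 aquaporins tested (19 listed), 1 rose and 5 fell, against 16.2% and 14.4% of all genes tested, with a median of -0.47. The 5 that fell included 4 of the tonoplast type, which move water and small solutes across the vacuole membrane. GAMMA-TIP had 1844, 2730 and 2420 CPM at 3 h, against 5315, 4365 and 5659 CPM in water (log2 fold change -1.13 ± 0.27, adjusted p = 0.00389), and TIP2;2 had 593, 821 and 1229 CPM at 3 h, against 1968, 2433 and 2452 CPM in water (log2 fold change -1.38 ± 0.28, adjusted p = 0.00104), with the groups apart in both. PIP1;4, of the plasma membrane, rose by 0.65 ± 0.19, a call lost under upper-quartile scaling and without replicate b in water or replicate c at 3 h.

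Hormone lists were called about as often as genes in general, of which 30.5% were called, apart from the cytokinin list. Of 15 auxin genes tested (17 listed), 1 rose and 4 fell, with a median of -0.61, and 2 fell without replicate b in water or without replicate b or c at 3 h. The influx carrier AUX1 had 25, 15.2 and 8.93 CPM at 3 h, against 50.6, 79 and 66.5 CPM in water (log2 fold change -1.95 ± 0.31, adjusted p = 0.000108), and the carrier genes LAX3 (-0.80) and PIN4 (-1.25) fell, while the repressor IAA16 rose (1.35). Of 12 abscisic acid and dehydration genes tested (16 listed), 4 rose and 0 fell, with a median of 0.36, among them the phosphatase HAI1 with 14.9, 31.5 and 21.8 CPM at 3 h, against 3.59, 3.8 and 10.7 CPM in water (log2 fold change 2.09 ± 0.45, adjusted p = 0.0016). Of 13 ethylene genes (13 listed), 2 rose and 3 fell, with a median of -0.18. ERF1, a late target of ethylene and jasmonate, had 31.2, 47.9 and 87.8 CPM at 3 h, against 13.2, 13.6 and 7.39 CPM in water (log2 fold change 2.21 ± 0.37, adjusted p = 0.000165). EBF2, an F-box protein that degrades the ethylene factor EIN3, had 16.5, 7.99 and 14.9 CPM at 3 h, against 56.2, 74.7 and 38.6 CPM in water (log2 fold change -2.11 ± 0.34, adjusted p = 0.000145). Neither ERF1 nor EBF2 had overlapping groups. Of 3 cytokinin response genes tested (5 listed), 0 were called by edgeR or DESeq2 and 0 had an unadjusted p under 0.05. Of 7 suberin genes tested (10 listed), GPAT7 was the 1 called (1.52), and its call was lost under 6 of the 22 alternatives, among them DESeq2, upper-quartile scaling and the fits without replicate a or b in water or replicate c at 3 h.

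Clock genes were called with different signs. Of 12 tested (14 listed), 2 rose and 5 fell, against 16.2% and 14.4% of all genes tested, with a median of -0.47. The rises were 1 without any 1 of the 6 libraries compared, and the falls were 3 without any 1 of them other than replicate a at 3 h. CCA1, a morning factor, had 6.89, 6.79 and 3.47 CPM at 3 h, against 0, 0.33 and 1.64 CPM in water (log2 fold change 3.62 ± 0.76, adjusted p = 0.00147), and the evening gene TOC1 had 14.9, 9.18 and 6.45 CPM at 3 h, against 23.5, 28.3 and 20.5 CPM in water (log2 fold change -1.21 ± 0.44, adjusted p = 0.0436; call lost under 9 of the 22 alternatives, among them those without any single water library and without replicate b or c at 3 h). GRP7, an abundant RNA-binding protein under the clock, had 2247, 2562 and 2628 CPM at 3 h, against 6480, 5568 and 9351 CPM in water (log2 fold change -1.52 ± 0.25, adjusted p = 0.000149), and its relative CCR1 (AT4G39260) had 1334, 1346 and 1636 CPM at 3 h, against 4070, 3371 and 5667 CPM in water (log2 fold change -1.60 ± 0.23, adjusted p = 3.11e-05). The groups were apart in all 4, but the sources used here do not give the time of day at which each group was collected. The evening element was in 7 of the 12 clock gene promoters.

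Genes of the secretory pathway included some large falls. Of 8 coatomer subunits tested (9 listed), which coat vesicles of the Golgi, 3 fell and 0 rose, against 14.4% of all genes tested that fell. The beta subunit gene AT4G31480 had 1.84, 1.6 and 0.5 CPM at 3 h, against 37, 32.1 and 21.3 CPM in water (log2 fold change -4.38 ± 0.38, adjusted p = 1.1e-07), while the epsilon subunit gene AT1G30630 had 2.76, 3.59 and 3.97 CPM at 3 h, against 13.2, 17.5 and 11.5 CPM in water (log2 fold change -2.09 ± 0.37, adjusted p = 0.000315). Both fell without overlap. Of 13 endoplasmic reticulum folding genes tested (15 listed), 1 rose and 2 fell, against 16.2% and 14.4% of all genes tested. Their median was -0.25, and 2 rose without replicate c in water. The J-domain co-chaperone ATERDJ3A had 9.87, 3.19 and 13.4 CPM at 3 h, against 0.4, 0.66 and 1.64 CPM in water (log2 fold change 3.48 ± 0.70, adjusted p = 0.00105), and the disulfide isomerase gene UNE5 had 3.67, 2 and 7.44 CPM at 3 h, against 14.3, 16 and 23.8 CPM in water (log2 fold change -2.06 ± 0.50, adjusted p = 0.00451). ATG8C (-2.22) and NBR1 (-0.66) were the 2 of 5 autophagy genes tested (9 listed) that were called, both lower. Across the 22 alternatives ATG8C lost its call in 6 and NBR1 in 8, and 0 or 1 autophagy gene fell without any single library of 3 h or water. Of the transcripts encoded in organelles, 1 of 14 mitochondrial ones rose and 3 of 9 plastid ones fell, against 16.2% and 14.4% of all genes tested. The fall of the plastid transcript ATCG00800 (-1.66, adjusted p = 0.047) lost its call under 10 of the 22 alternatives. Among these were the fits without replicate a or b in water or replicate b or c at 3 h. The mitochondrial count was 3 without replicate c in water and 4 without replicate a at 3 h, and 2 or 3 without some single libraries of the other groups.

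Set directly against 2 h of H2O2, 3 h differed in 287 genes, 2.87% of those tested, of which 69 rose (0.691%) and 218 fell (2.18%). The comparison with water and this one share the 3 h libraries, so values are given side by side. HSP17.6A had 1720, 2312 and 5511 CPM at 3 h, against 859, 846 and 1386 CPM at 2 h (log2 fold change 1.63 ± 0.35, adjusted p = 0.0138), and HSP23.6-MITO had 257, 258 and 598 CPM at 3 h, against 159, 111 and 143 CPM at 2 h (log2 fold change 1.42 ± 0.32, adjusted p = 0.0165). All 4 organellar and 4 of 8 cytosolic small heat shock proteins tested rose against 2 h. DREB19, a stress factor of the AP2/ERF family, had 13.6, 12.4 and 43.2 CPM at 3 h, against 1.9, 1.96 and 5.13 CPM at 2 h (log2 fold change 2.98 ± 0.64, adjusted p = 0.0133). Each of these 3 genes was higher in every library of 3 h than in any of 2 h. The list of DNA damage and cell cycle inhibitors had 3 of 6 higher than at 2 h, and the hypoxia list 3 of 19. Histones rose in 3 of 36 against 2 h, AT1G75600 among them with 35.6, 19.2 and 46.6 CPM at 3 h, against 11, 9.81 and 12 CPM at 2 h (log2 fold change 1.62 ± 0.37, adjusted p = 0.0194), and ribosomal proteins rose in 0 and fell in 7 of 223. The count of rises moved with single libraries: it was 37, 9 and 44 without replicate a, b or c at 2 h, 218 and 10 without replicate a or c at 3 h, and 105 without replicate c at 1 h. The falls numbered 145 and 124 without replicate a or b at 2 h and 117 without replicate b at 3 h.

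Some genes were much lower at 3 h than at 2 h. CARA, the small subunit of carbamoyl phosphate synthetase, which feeds arginine and pyrimidine synthesis, had 35.5, 38.4 and 32.8 CPM in water, 38.7, 36.5 and 20.5 CPM at 1 h, 46.8, 42.2 and 34.2 CPM at 2 h and 3.9, 2.4 and 3.47 CPM at 3 h. Its fall against 2 h was -3.62 on the log2 scale (adjusted p = 7.38e-06) and its fall against water was -3.41. The coatomer gene AT4G31480 had 37, 32.1 and 21.3 CPM in water, 26.7, 20.5 and 22.1 CPM at 1 h, 20.1, 17.6 and 17.1 CPM at 2 h and 1.84, 1.6 and 0.5 CPM at 3 h (3 h against 2 h, log2 fold change -3.65 ± 0.40, adjusted p = 2.6e-05). UNE5 had 3.67, 2 and 7.44 CPM at 3 h, against 10.7, 11.8 and 16.2 CPM at 2 h and was not called (log2 fold change -1.58 ± 0.53, adjusted p = 0.13). For CARA and AT4G31480 every 3 h library lay below every library of the other 3 groups. TPX1 (-2.37), GSTZ1 (-2.20), AT1G30630 (-2.16) and the ribosomal gene AT2G17360 (-2.40) also fell against 2 h, while 1 of 21 extensins and 0 of the root hair markers tested did.

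**Figure D5:**
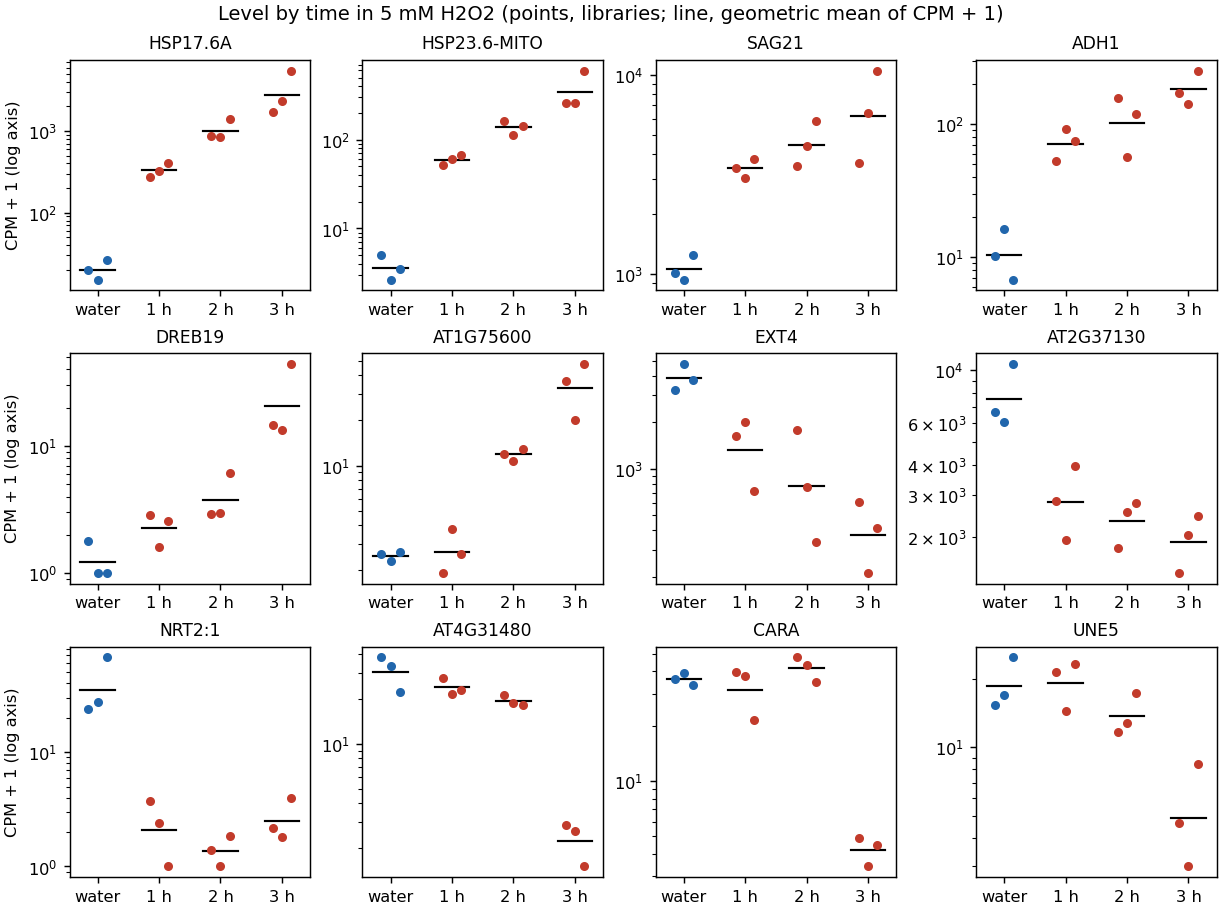
CPM + 1 on a log y axis for 12 genes in water and after 1 h, 2 h and 3 h in 5 mM H2O2 (points are the 3 libraries of a group, lines their geometric mean). HSP17.6A and HSP23.6-MITO are higher at each later time, AT2G37130 and NRT2:1 are already low at 1 h, and CARA and AT4G31480 are low at 3 h alone among the groups shown.

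Against 1 h of H2O2, 3 h differed in 1383 genes, 13.8% of those tested, of which 690 rose (6.91%) and 693 fell (6.94%). All 8 cytosolic and all 4 organellar small heat shock proteins tested rose, and 13 of 36 histones rose while 0 fell. Extensins fell in 14 of 21 cases. Of the 14 amino acid breakdown and starvation genes 7 rose against 1 h, and of the 13 endoplasmic reticulum folding genes 1 rose and 5 fell. HSP17.6A had 1720, 2312 and 5511 CPM at 3 h, against 276, 319 and 406 CPM at 1 h (log2 fold change 3.26 ± 0.38, adjusted p = 2.45e-05). AT2G37130 had 1404, 2026 and 2434 CPM at 3 h, against 2815, 1936 and 3969 CPM at 1 h (log2 fold change -0.57 ± 0.33, adjusted p = 0.262). The first was higher at 3 h in every library, and the second had overlapping groups. Without replicate a at 1 h 749 genes were called and without replicate b or c at 3 h 908 and 753, against 1383 in all. Under upper-quartile scaling 541 rose and 878 fell.

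The authors' deposited table of 3 h against water lists 363 genes with its adjusted p under 0.05, 71 with a positive and 292 with a negative log2 fold change. All 363 were also called here, each with the opposite sign, so the authors' deposited values run as water over 3 h. HSP17.6A has -7.41 and DOT1 has 1.99 in the authors' deposited table. The 363 genes were 11.9% of the genes called here. DESeq2 run here on the same counts called 3181 genes, and why the authors' count is lower was not tested.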

How the data were processed

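MARS-seq libraries were made from total RNA of 15 root samples and sequenced on an Illumina NextSeq, per the labels' protocols. STAR 2.4.2a, HTSeq, DESeq2, cutadapt and bcl2fastq are listed without roles in the submitters' processing notes, and the sources used here give neither the genome build nor the treatment of molecular identifiers. The authors deposited raw counts per gene with no normalization, beside log2 fold changes and adjusted p-values of their own comparisons; 30 further per-sample columns were not used. The deposited p-values and log2 values were used only where the authors' table is named.

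Groups came from the labels. Counts of all 15 libraries were filtered with filterByExpr (minimum count 10, minimum total 15), scaled by TMM (factors 0.784 to 1.20) and fitted in edgeR 4.0.16 (R 4.3.3) with a term per group, glmQLFit (robust) and two-sided glmQLFTest, giving 10 residual degrees of freedom; a Benjamini-Hochberg adjusted p under 0.05 was a call. CPM use the TMM-scaled totals. The steps were tested on simulated data in which 200 genes changed at 3 h, by 1, 2 or 3 on the log2 scale in separate runs. In the comparison of 3 h with water 7%, 89% and 97% of them were recovered, and 6.67%, 6.81% and 3.48% of the genes called were false. In the measured data 3048 genes were called. The adjustment depends on how many genes change, so these recoveries need not hold for the measured data. Alternatives were RLE and upper-quartile scaling, no filter, DESeq2 1.42.0, only the 6 libraries compared, a replicate block, counts thinned to 689372 a library, and leaving out each library. Counting intervals cover counting error only, and p-values measure the spread between these samples.

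Members of gene lists were chosen with earlier results of these data known, from gene IDs or RefSeq product names (14497 of 14532 IDs matched RefSeq TAIR10.1). Genes named were called, had groups that did not overlap and averaged at least 20 CPM in the higher group: the 12 largest rises and falls, the 8 largest gains and losses in CPM, and 4 each way against 2 h. Up to 5 members of each list with the lowest adjusted p, and a set of known H2O2 response genes, were added whether called or not; ERF109 dropped out because RefSeq gives this symbol to no gene. Genes named beyond these, with a log2 value or as members of a list, were chosen after their values were seen. Promoters were read from the RefSeq genome and annotation, TAIR10.1. A few results that the naming rule covers are not reported here. Python 3.11.15, pandas 2.3.3, scipy 1.17.1 and matplotlib 3.10.9 were used for the rest.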

Additional observations from a re-analysis of the deposited data

Results flagged for a closer look

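The genes below had the largest differences between 3 h and 2 h of H2O2 among those named, by edgeR's quasi-likelihood test of that difference itself with Benjamini-Hochberg adjustment. DREB19 was higher at 3 h by 2.98 on the log2 scale (adjusted p = 0.0133), with 0.8, 0 and 0 CPM in water, 1.9, 1.96 and 5.13 CPM at 2 h and 13.6, 12.4 and 43.2 CPM at 3 h. AT2G15340, annotated as a glycine-rich protein, was higher by 2.37 (adjusted p = 0.0286), with 0.8, 0.83 and 1.64 CPM in water, 4.94, 9.81 and 5.13 CPM at 2 h and 15.2, 12.4 and 72.9 CPM at 3 h. AT5G24640, an uncharacterized protein, was higher by 2.14 (adjusted p = 0.0487), with 2.79, 0.17 and 0 CPM in water, 5.7, 6.86 and 7.69 CPM at 2 h and 18.1, 25.2 and 45.6 CPM at 3 h. AT2G23110, the LEA gene, was higher by 2.05 (adjusted p = 0.0337), with 7.98, 6.86 and 8.54 CPM at 2 h. In all 4 genes the values of 3 h lay above those of 2 h, and replicate c was the highest at 3 h. Of all genes tested 69 rose against 2 h, 10 without replicate c at 3 h and 9 without replicate b at 2 h. Whether these 4 calls hold without single libraries was not examined.

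AT1G56660, with a MAEBL domain, differed from 2 h by -4.70 (adjusted p = 0.00603), with 11.6, 7.11 and 25.4 CPM in water, 21.7, 24.5 and 33.3 CPM at 2 h and 1.61, 0.8 and 0 CPM at 3 h. The CARA difference from 2 h was -3.62 (adjusted p = 7.38e-06). AT5G11090, annotated as an uncharacterized RNA, differed by -3.52 (adjusted p = 0.000106), with 82.9, 54.7 and 49.2 CPM in water, 29.7, 31.4 and 17.9 CPM at 2 h and 2.3, 1.2 and 3.47 CPM at 3 h. AT2G27500, a glycosyl hydrolase gene, differed by -3.50 (adjusted p = 4.86e-05), with 19.9, 16.9 and 20.5 CPM in water, 18.2, 32.4 and 28.2 CPM at 2 h and 2.3, 2.8 and 1.49 CPM at 3 h. The values of 3 h lay below those of 2 h in each of these 4 genes.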

How the results depend on the processing

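Over 22 alternatives, the 231 genes named by the rule gave 5033 recomputed values, of which 4843 kept direction and call, 133 lost the call and 39 gained one. Another 18, called in neither fit, had the other sign, and 0 called values changed direction. For 3 h against water, thinned counts gave 1010 calls, 628 higher and 382 lower, from 7155 genes tested. No other alternative moved that count by over 1.5 times, and leaving out a library gave 2148 to 3227 (1147 to 1674 higher, 1001 to 1553 lower).

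Against 2 h, thinning gave 16 calls (2 higher, 14 lower). Rises numbered 119 with no filter, 122 with DESeq2 and 28 with only the 6 libraries compared. Leaving out a library gave 133 to 414 calls, 9 to 218 higher and 117 to 232 lower. Counts more than 1.5 times below the full 287 came without replicate a (182) or b (133) at 2 h and without replicate b (164) or c (178) at 3 h. Against 1 h, thinning gave 286 calls (170 higher, 116 lower) and the 6 libraries alone 848 (413 higher, 435 lower). Leaving out a library gave 749 to 1492 calls, 345 to 929 higher and 393 to 737 lower, with 908 calls without replicate b at 3 h. Thinning cut the counts per library as well as the genes tested, and why the counts of calls moved was not tested. Of 1936 recomputed list counts, 205 moved by over 1.5 times.

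The replicate letters share no stated origin, and same-letter deviations correlated at -0.444 to 0.644, with 7 of 15 libraries closest to their own letter. A replicate block gave 1551 rises and 1343 falls against water, 275 calls against 2 h and 1284 against 1 h. In the simulated run with changes of 1 on the log2 scale, only 200 genes changed and 7% of them were recovered. Depth was not varied in that simulation, so its part in the recovery was not tested.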

Other observations

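Some list members had too few counts to be tested, and their raw counts are given with no test. The small heat shock protein gene AT1G54050 had 6, 3 and 3 counts at 3 h, against 0, 0 and 0 counts in water. The root hair gene SHV2 (COBL9, AT5G49270), which guides wall deposition at the tip, had 4, 1 and 0 counts at 3 h, against 20, 58 and 4 counts in water. RHD2, the NADPH oxidase of root hairs, had 6, 3 and 1 counts at 3 h, against 5, 10 and 1 counts in water. The root cap gene NAC070 had 0, 1 and 1 counts at 3 h, against 4, 17 and 1 counts in water. The stem cell niche gene WOX5 had 14, 7 and 2 counts at 3 h, against 7, 14 and 3 counts in water.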
